A study of Mus musculus with 22 samples.

Results

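The NF-κB family and its direct regulators were followed in a lung epithelial cell line exposed to multi-walled carbon nanotubes (MWCNT). The 10 genes were the DNA-binding subunits Rela, Relb, Rel, Nfkb1 and Nfkb2, the inhibitors Nfkbia, Nfkbib and Nfkbie, the kinase gene Ikbkb and the feedback inhibitor Tnfaip3. They were chosen by name, with earlier results of these data known. The RefSeq accessions of the array probes could be matched to 20018 genes. All 10 were on the array, by 14 probes. FE1 is a spontaneously immortalized line from the lung of the transgenic MutaMouse, so each group is 1 line without other lung cells. The cultures received Mitsui7, a MWCNT dispersed in culture medium, for 24 h. The low dose was 12.5 µg/ml (6 arrays), the medium dose 25 µg/ml (5 arrays) and the high dose 100 µg/ml (6 arrays), and 5 control arrays came from cells given medium without Mitsui7. All groups, controls included, were grown in medium with 2% fetal bovine serum, antibiotics and murine epidermal growth factor. On each of the 22 arrays, RNA of 1 sample (Cy5) was hybridised against the same reference RNA pooled from mouse cell lines (Cy3), and levels are given here as log2(Cy5/Cy3), called the log2 ratio. The study's methods report fewer separate exposure experiments than there are arrays in a group, so the arrays of a group are not all independent exposures. The labels do not say which arrays came from which experiment. The p-values therefore measure the spread between arrays, not between exposure experiments, and part of that spread may be technical.

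NF-κB is a family of dimeric transcription factors that act in inflammation, survival and the response to injury. In resting cells the dimers are held in the cytoplasm by IκB proteins, the products of Nfkbia, Nfkbib and Nfkbie. When a receptor for a cytokine or a microbial product is engaged, the IκB kinase marks the inhibitor for degradation, and the dimer enters the nucleus and binds κB sites. Nfkbia and Tnfaip3 are themselves classical targets, and their products close the loop by trapping the dimer and by trimming ubiquitin chains from the signalling complex. Much of this control acts on proteins, which an RNA array does not measure.

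The κB consensus, a motif of 10 letters, was searched on both strands in the RefSeq windows from 250 bases before to 50 bases after each transcription start (build GRCm38.p6). Of 32851 windows in the mouse table, 2779 (8.46%) held at least 1 match. A window was found for 7 of the 10 genes, and 5 of these held a match in at least 1 window, namely Tnfaip3, Nfkbia, Nfkb2, Nfkbie and Rel. Counted by gene, as the 5 of 7 are, 2581 of 27025 genes (9.55%) held a match in at least 1 window. The windows of Rela and Nfkbib held none, and Relb, Nfkb1 and Ikbkb were not in the table. The 130 bases just before the start are printed for both genes that changed in these data (Tnfaip3 and Rela) and for 2 that did not pass the test (Nfkbia and Nfkb2), with the letters of the matches in capitals. They lie at chr10:19015411-19015540 on the minus strand for Tnfaip3, chr19:5637411-5637540 on the plus strand for Rela, chr12:55492648-55492777 on the minus strand for Nfkbia and chr19:46304607-46304736 on the plus strand for Nfkb2.
Tnfaip3: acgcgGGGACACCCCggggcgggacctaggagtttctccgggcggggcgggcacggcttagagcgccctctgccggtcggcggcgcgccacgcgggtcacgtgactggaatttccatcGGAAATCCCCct
Rela: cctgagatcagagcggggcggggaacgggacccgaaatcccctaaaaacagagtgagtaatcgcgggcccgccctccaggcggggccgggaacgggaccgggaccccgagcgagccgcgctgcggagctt
Nfkbia: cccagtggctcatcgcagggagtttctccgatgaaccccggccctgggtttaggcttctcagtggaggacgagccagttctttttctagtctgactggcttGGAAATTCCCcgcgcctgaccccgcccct
Nfkb2: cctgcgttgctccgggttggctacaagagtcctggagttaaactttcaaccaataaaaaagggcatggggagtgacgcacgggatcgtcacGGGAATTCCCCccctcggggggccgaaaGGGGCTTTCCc
The 2 matches of Tnfaip3 began 125 and 12 bases before the start, and the second window of the gene, at another start, held none. In Nfkb2 the first run of capitals holds 2 overlapping matches, 1 on each strand. A match in these letters is a description of the sequence and was not tested as a binding site.

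Expression of the genes was first compared with background. Detection required a Cy5 signal above the mean of the negative control spots by 3 SD. By the brightest probe of each gene, 9 of the 10 genes were detected on all 22 arrays. Rel, the c-Rel subunit best known from lymphocytes, was detected on 0 of 22 arrays, with a Cy5 signal of 57 to 78.5, so no change is given for it. No probe of the 10 genes was saturated on any array. The Cy5 signal of the Rela probe had a median of 18688 and that of the Tnfaip3 probe a median of 599.5, but signals of different probes are not comparable as levels.

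The arrays varied in quality, and the slides are numbered here by their barcodes. Each of slides 1 to 4 held all 4 groups, while slide 5 had only 2 arrays, 1 of the low and 1 of the high dose, with a scan time of its own for each slide. Between 23688 and 39139 probes were detected per array. Over 28879 probes, 17 of 22 arrays lay nearest to the mean of their own group. Low dose array 1 and high dose array 6 lay nearest to the medium dose, medium dose array 2 nearest to the low dose, and medium dose arrays 1 and 5 nearest to the high dose, and none of them lay nearest to the controls. Values without these 5 arrays, an alternative chosen after seeing the data, are given beside Tnfaip3, Rela and the lists of other genes. Of 12 epithelial markers, 6 were detected on at least 20 arrays, among them the keratins Krt8, Krt18 and Krt19, whereas Cdh1 (E-cadherin) and Sftpa1 were detected on no array. Hopx, an alveolar epithelial marker detected on 22 arrays, fell by 2.08 on the log2 scale at the high dose, and no other epithelial marker was called there. Epcam was detected on 10 arrays, Cldn4 and Sftpd on 16 and Sftpc on 17. The Cy5 signal summed over the 12 epithelial markers was 3266 to 19543.5 in controls, 4132 to 18173 at the low, 8595 to 15323.8 at the medium and 5815.5 to 17047 at the high dose. Such sums, here and below, add raw signals of different probes and do not measure the content of a cell type. The epithelial sum is led by Pdpn (median Cy5 signal 8345.5, against 931.5 for Krt18) and the leukocyte sum by Itgam (9048.5). Of 9 leukocyte markers, 8 were on the array and 5 were detected on at least 20 arrays (Itgam, Cd14, Cd3e, Csf1r and Ptprc), with a summed Cy5 signal of 6071.5 to 23501 in controls, 6729 to 21366 at the low, 13099.5 to 18114 at the medium and 10244.5 to 17800 at the high dose, and none was called at the high dose. Of 4 endothelial markers, Kdr and Pecam1 were detected on at least 20 arrays, and none was called at the high dose. All 6 mesenchymal markers were detected on 22 arrays, with a summed Cy5 signal between 131902 and 680483 in controls, between 98433.5 and 423573 at the low, 205448 and 304728 at the medium and 139544 and 360280 at the high dose, and 4 of them (Col1a1, Col1a2, Pdgfra and Dcn) were lower at the high dose. Their part in the results below was not tested. In RNA from a whole culture, fewer cells with a transcript and less of it per cell cannot be told apart.

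Each dose was compared with the controls to ask which genes of the family respond to Mitsui7 at the RNA level. A gene was called changed when limma gave an adjusted p of at most 0.05 with slide in the model, the change was at least 1.5-fold, and it was detected on at least 4 arrays of either group. Tnfaip3 rose at each of the 3 doses and Rela at the high dose, and no other gene of the 10 passed the test. The count was thus 1 of 10 at the low dose, 1 of 10 at the medium dose and 2 of 10 at the high dose, all of them higher. Over all detected genes, 5.28% were called at the low dose (2.21% higher and 3.06% lower), 8.97% at the medium dose (4.29% higher and 4.68% lower) and 11.9% at the high dose (5.47% higher and 6.44% lower). With 10 genes, 1 gene is 10% of the list, so the counts are near the background at each of the 3 doses. The 10 include Rel, which was detected on no array, whereas the background covers detected genes only. Among the 9 detected genes the median change was 0.20 at the low dose, 0.26 at the medium dose and 0.35 at the high dose on the log2 scale, with 5 genes above 0 and 4 below at each dose. At each dose this median is the change of 1 gene, Nfkb2, which did not pass the test. Without control array 5 the low dose change of Nfkb2 was -0.0044. With Rel included, the median of the 10 genes was 0.11, 0.17 and 0.14 from the low to the high dose. The median over all detected genes lay between 0.00 and 0.01 at each dose. The 3 comparisons share the same control arrays, so their values are not independent of each other.

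**Figure D1:**
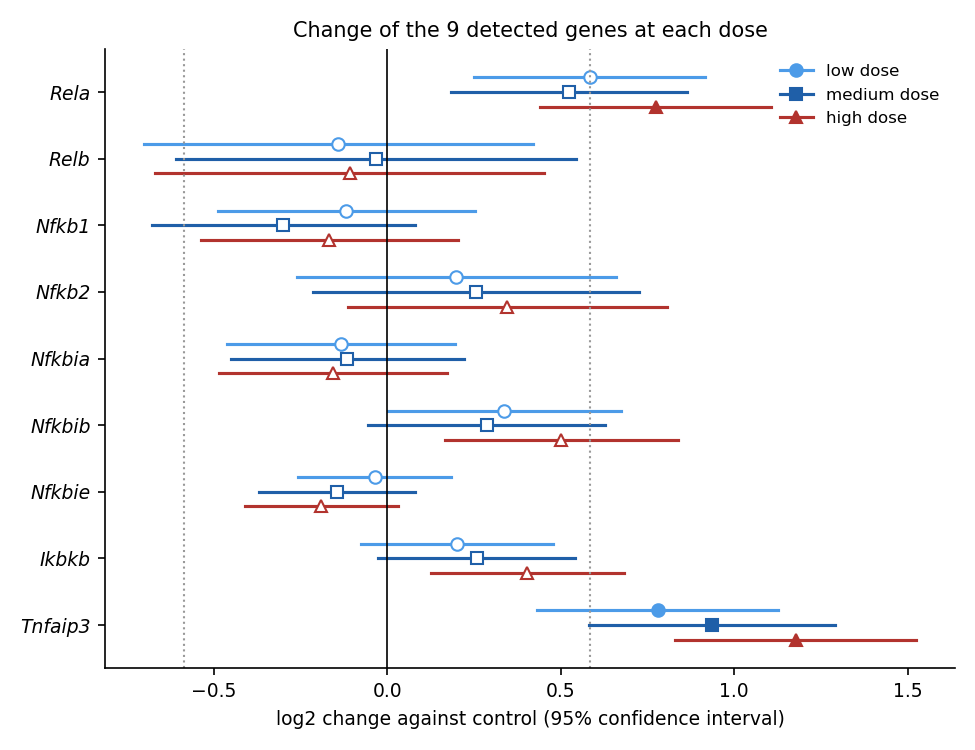
Change of the 9 detected genes against control on the log2 scale, with 95% confidence intervals from limma, for the low (circles), medium (squares) and high dose (triangles). Filled symbols passed the test, and the dotted lines mark a 1.5-fold change. The 3 symbols of Tnfaip3 lie between 0.78 and 1.18, and of Rela only the high dose (0.77) is filled.

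Tnfaip3, which encodes the ubiquitin-editing enzyme A20, was the only 1 of the 10 genes whose exposed and control arrays did not overlap at any dose. In the 5 controls its log2 ratio was -1.15, -1.32, -1.35, -1.30 and -1.32, with a mean of -1.29 ± 0.08 (SD, n = 5). At the low dose the ratio ran from -0.99 to 0.18 with a median of -0.62 over 6 arrays, and its mean was -0.55 ± 0.40 (SD, n = 6). At the medium dose it was -0.18, -0.51, -0.47, -0.24 and -0.36, with a mean of -0.35 ± 0.14 (SD, n = 5). Low dose array 1 stood well above the other low dose arrays. At the high dose the ratio ran from -0.52 to 0.31 with a median of -0.19, and its mean was -0.15 ± 0.31 (SD, n = 6). Every exposed array thus lay above every control array. Such a lack of overlap held for 4.82% of all detected genes at the low dose, 9.95% at the medium dose and 11.4% at the high dose.

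In the fit with slide, Tnfaip3 was 1.72-fold higher at the low dose (log2 change 0.78, SE 0.17, limma adjusted p = 0.00899). The change was 1.91-fold at the medium dose (0.94, SE 0.17, limma adjusted p = 0.00151) and 2.26-fold at the high dose (1.18, SE 0.17, limma adjusted p = 6.67e-05). Against the control arrays of the same slide, the difference was above 0 on 4 of 4 slides at each dose, with values of 0.56 to 0.86 for the low, 0.88 to 1.06 for the medium and 0.78 to 1.38 for the high dose. Without low dose array 1 and medium dose array 2, the changes were 0.63, 0.98 and 1.16, and all 3 passed the test. Without the 5 arrays that lay nearest to another group they were 0.63, 0.91 and 1.13 (limma adjusted p = 0.0415, 0.0419 and 0.000278), and all 3 passed again. The call at the low dose was lost when the arrays were centred on their median in place of loess (0.65, limma adjusted p = 0.435), in a fit of only those 2 groups (0.78, limma adjusted p = 0.0849) and without slide 3 (0.76, limma adjusted p = 0.0741). Median centring also ended the call at the medium dose (0.98, limma adjusted p = 0.142).

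**Figure D2:**
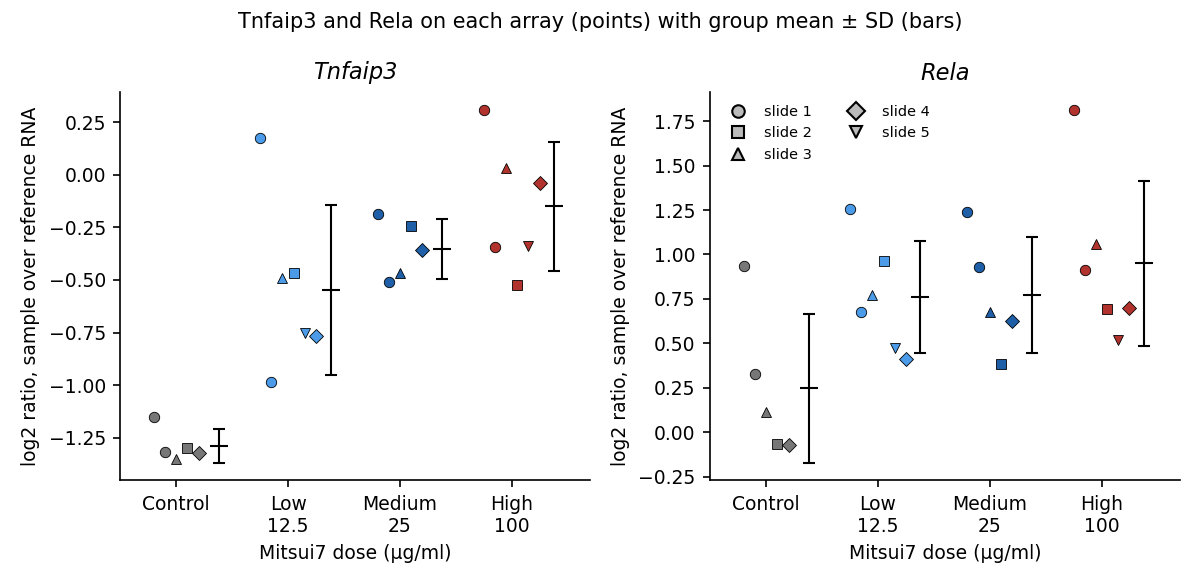
Log2 ratio of sample to reference RNA for Tnfaip3 and Rela on each of the 22 arrays (points, the shape gives the slide), with the mean ± SD of each group (bars). All exposed arrays lie above the highest control for Tnfaip3 (-1.15), whereas for Rela control array 1 (0.94) lies among the exposed arrays.

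Rela encodes p65, the subunit that carries the transactivation domain of the classical dimer. Its log2 ratio in the controls was 0.94, 0.33, 0.11, -0.07 and -0.07, with a mean of 0.25 ± 0.42 (SD, n = 5). The first control array was far above the others, and the highest array of each exposed group was on the same slide. The ratio ran from 0.41 to 1.25 with a median of 0.73 at the low dose and from 0.52 to 1.81 with a median of 0.81 at the high dose. At the medium dose it was 1.24, 0.93, 0.68, 0.38 and 0.63. Only 2 of 6 low dose, 1 of 5 medium dose and 2 of 6 high dose arrays exceeded every control, so the groups overlapped at each dose.

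With slide in the model Rela was 1.71-fold higher at the high dose (log2 change 0.77, SE 0.16, limma adjusted p = 0.00285). At the low dose its change of 0.583 fell just short of the 0.585 that a 1.5-fold change requires, with a limma adjusted p of 0.0469, and it was not called. At the medium dose the change was 0.52 (SE 0.16, limma adjusted p = 0.0685). The adjusted p at these doses depended on the model. With replicate numbers as the block in place of slide, Rela changed by 0.57 at the low dose (limma adjusted p = 0.00253) and 0.52 at the medium dose (limma adjusted p = 0.00441), both under 1.5-fold. With median centring the limma adjusted p was 0.670 and 0.802. Within slides the difference from control was above 0 on 4 of 4 slides at each dose, at 0.33 to 1.03 for the low, 0.45 to 0.70 for the medium and 0.73 to 0.94 for the high dose. Leaving out control array 1 brought the low dose (0.69, limma adjusted p = 0.0193) and the medium dose (0.63, limma adjusted p = 0.0264) past the test. The low dose also passed without low dose array 2 (0.69, limma adjusted p = 0.0135), without high dose array 2 (0.59, limma adjusted p = 0.0306) and without slide 1 (0.73, limma adjusted p = 0.0152). Most fits did not bring these doses past the test. Leaving out 1 array did so in 3 of 22 fits at the low dose and 1 of 22 at the medium dose. The 22 other settings did so in 2 at the low dose and 0 at the medium dose. The call at the high dose was lost without the slide term (0.70, limma adjusted p = 0.0719) and with median centring (0.73, limma adjusted p = 0.503), and it was kept without low dose array 1 and medium dose array 2 (0.77, limma adjusted p = 0.00450) and without the 5 arrays nearest to another group (0.76, limma adjusted p = 0.0185).

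**Figure D3:**
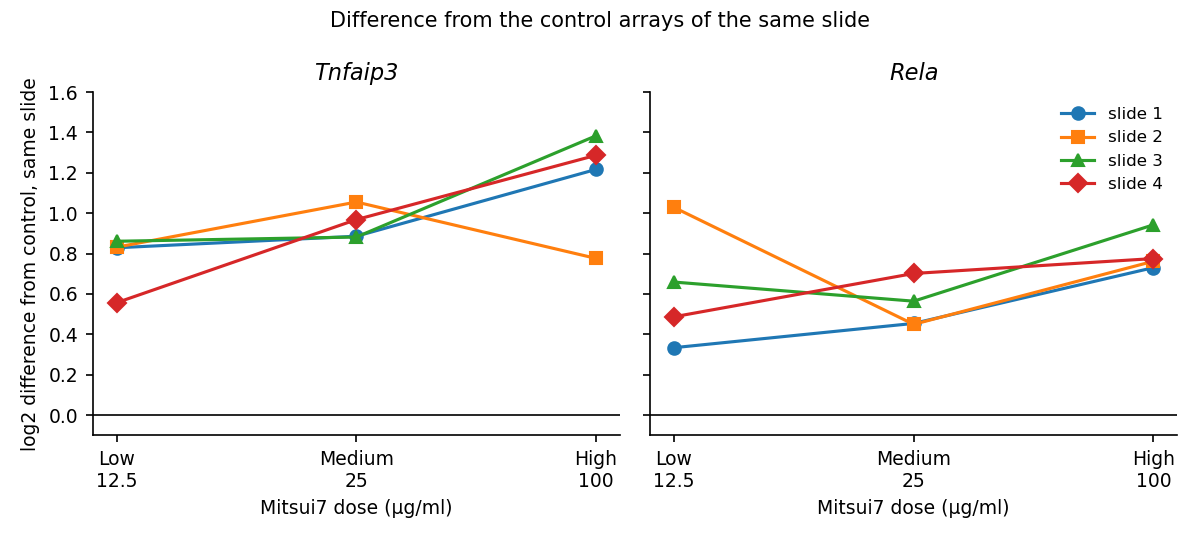
Difference of the log2 ratio from the control arrays of the same slide for Tnfaip3 and Rela at each dose, 1 line per slide (slides 1 to 4; slide 1 holds 2 arrays per group, averaged). All points lie above 0, the lowest at 0.56 for Tnfaip3 and 0.33 for Rela.

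The doses were also compared with each other, to see whether the response grew with dose. Tnfaip3 had the order high, medium, low, with a difference of 0.40 between high and low dose (95% interval 0.07 to 0.72, limma adjusted p = 0.446). It was 0.24 between high and medium dose (-0.11 to 0.59, limma adjusted p = 1.00) and 0.16 between medium and low dose (-0.19 to 0.50, limma adjusted p = 0.922). No pair of neighbours in this order differed beyond its spread. For Rela the high dose exceeded the low dose by 0.19 (-0.12 to 0.50) and the medium dose by 0.25 (-0.08 to 0.58), and the medium dose differed from the low dose by -0.06 (-0.39 to 0.27). None of the 10 genes was called by limma between doses, and at an unadjusted p under 0.05 there was 1 between high and low dose (Tnfaip3) and 0 in the other 2 comparisons. Over all detected genes 0.463% were called between high and low dose, 0% between high and medium dose and 0% between medium and low dose.

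The other subunits showed no change that passed the test. Relb, which pairs with the Nfkb2 product in the alternative pathway, had a change of -0.14 at the low dose, -0.03 at the medium dose and -0.11 at the high dose by its brightest probe, with limma adjusted p-values of 0.884, 0.981 and 0.921. This probe had no value on the 4 arrays of slide 2, where its spots were marked as outliers. Its control ratios were -1.72, -1.14, -0.89 and 0.80, and the last, on control array 5, was above every exposed array. Without that array the changes turned to 0.35, 0.46 and 0.38. The second Relb probe, measured on all arrays, gave 0.14, 0.29 and 0.31 (limma adjusted p = 0.659, 0.175 and 0.0955), so the sign of Relb depended on the probe and on 1 control array.

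Nfkb1 and Nfkb2 encode the precursors that are processed to the subunits without a transactivation domain. The log2 change of Nfkb2 was 0.20, 0.26 and 0.35 from the low to the high dose (limma adjusted p = 0.776, 0.706 and 0.486). Within slides the difference was 1.30, 0.96 and 0.98 on slide 4, whose only control is array 5. On the other slides it ran from -0.36 to 0.26 at the low, 0.0041 to 0.31 at the medium and -0.10 to 0.31 at the high dose. Without control array 5 the low dose change was -0.0044. Its ratio spanned -1.33 to -0.26 in controls and -0.54 to 0.13 at the high dose, and 2 of 6 high dose arrays exceeded every control. For Nfkb1 it was -0.12, -0.30 and -0.17 (limma adjusted p = 0.846, 0.495 and 0.756) by its brightest probe. Its second probe gave 0.15, 0.17 and 0.11, so no direction can be given for Nfkb1. The ratio of the brighter probe ran from -1.02 to 0.53 within the controls alone. With slide effects removed, as in the fit, it ran from -0.55 to -0.10 there.

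**Figure D4:**
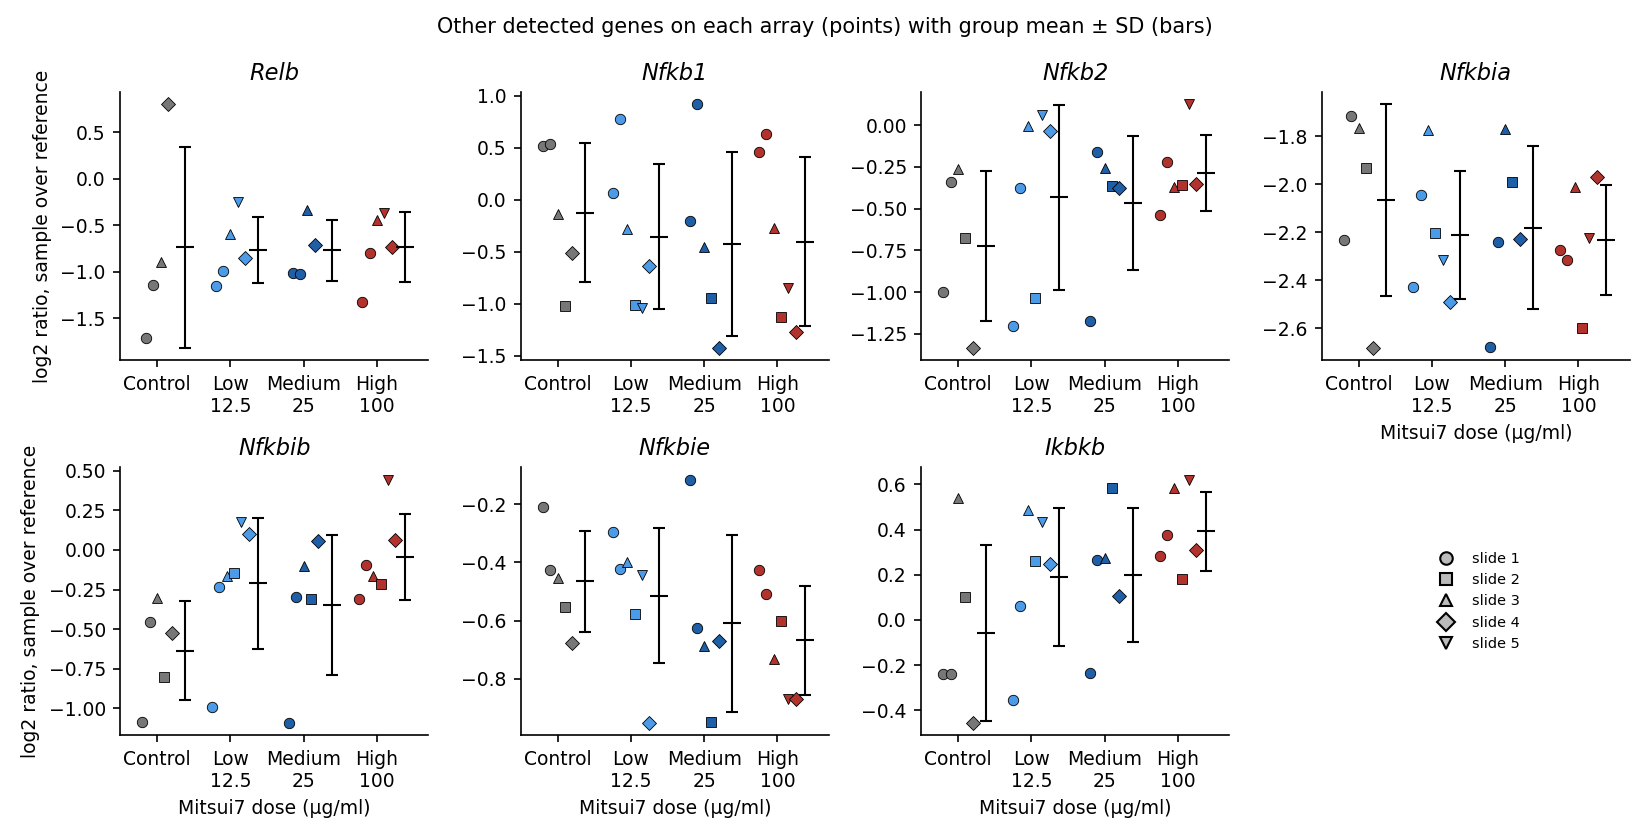
Log2 ratio of sample to reference RNA for the 7 other detected genes on each array (points, the shape gives the slide), with the mean ± SD of each group (bars). In each panel the exposed arrays overlap the controls, and control array 5 (slide 4) is the highest control for Relb (0.80) and the lowest for Nfkbia (-2.68).

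None of the 3 IκB genes passed the test at any dose. Nfkbia, the inhibitor that is resynthesized fastest after NF-κB activation, had ratios of -2.23, -1.71, -1.77, -1.93 and -2.68 in controls and of -2.68, -2.24, -1.77, -1.99 and -2.23 at the medium dose. At the high dose they ran from -2.60 to -1.97 with a median of -2.25, within the range of the controls. From the low to the high dose the change was -0.13 (95% interval -0.46 to 0.19), -0.12 (-0.45 to 0.22) and -0.16 (-0.49 to 0.17). Each of these intervals lies inside a 1.5-fold change in either direction. Nfkbie, the IκB epsilon gene, gave -0.04, -0.14 and -0.19, and its interval at the high dose was -0.41 to 0.03.

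Nfkbib encodes the more slowly turned over IκB beta. By its brightest probe it had positive changes at each dose, namely 0.34, 0.29 and 0.50 (limma adjusted p = 0.353, 0.456 and 0.0610). Its controls were -1.09, -0.46, -0.31, -0.80 and -0.52, and 5 of 6 low dose, 3 of 5 medium dose and 5 of 6 high dose arrays lay above all of them. The high dose ratios ran from -0.31 to 0.44 with a median of -0.13. Within slides the difference was above 0 on 4 of 4 slides at each dose, from 0.14 to 0.59 at the high dose. Without control array 2 the high dose passed the test (0.61, limma adjusted p = 0.0230). This was the only 1 of the 22 fits without 1 array in which it passed, and it passed in 0 of the 22 other settings. The 2 other Nfkbib probes gave 0.23 and 0.14 at the high dose, neither past the test (limma adjusted p = 0.760 and 0.510). The probe with 0.14 was near background, with a median Cy5 signal of 95 and detection on 16 of 22 arrays. Its change at the low dose was -0.05, opposite in sign to that of the brightest probe.

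Ikbkb encodes the catalytic subunit of the IκB kinase that serves the classical pathway. Its ratio was -0.24, -0.24, 0.54, 0.10 and -0.46 in controls and -0.23, 0.27, 0.27, 0.58 and 0.11 at the medium dose. At the high dose it ran from 0.18 to 0.62 with a median of 0.34, and 2 of 6 arrays exceeded every control. The changes were 0.20, 0.26 and 0.40 (limma adjusted p = 0.564, 0.396 and 0.0702), so Ikbkb did not pass the test at any dose, while the interval at the high dose was 0.13 to 0.68.

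Other genes of the pathway were counted from lists of adaptors and regulators, of target genes and of receptors. All of these lists were chosen with earlier results of these data known, so their shares are descriptions and not a test. Of 42 signalling genes, 2 were called at the low dose, 3 of 41 detected at the medium dose and 3 of 42 at the high dose, all of them lower. These shares of 4.76%, 7.32% and 7.14% stand beside 5.28%, 8.97% and 11.9% of all detected genes. The median change of the list was 0.02, -0.05 and -0.03. With no minimum fold, 4, 5 and 5 signalling genes were called, not all of them lower. Ikbkg, the regulatory subunit gene of the IκB kinase, was higher by 0.38 at the low dose (limma adjusted p = 0.0155) and 0.53 at the medium dose (limma adjusted p = 0.000669), under 1.5-fold. At the low dose Bcl3 was lower by under 1.5-fold (-0.46, limma adjusted p = 0.00968). Birc2, a ubiquitin ligase of the receptor complexes, fell by 0.66, 0.70 and 0.82 on the log2 scale from the low to the high dose. Map3k14, the kinase of the alternative pathway, fell by 0.63 at the medium and 0.67 at the high dose, and Bcl3, a nuclear IκB protein, fell by 0.62 and 1.04 at the same doses. The second Map3k14 probe was not called at the medium dose, with a change of -0.48 (limma adjusted p = 0.000483), which is under 1.5-fold, and was called at the high dose with -0.68 (limma adjusted p = 4.25e-06). At the high dose the limma adjusted p was 1.75e-05 for Birc2, 0.00122 for Map3k14 and 5.44e-07 for Bcl3. Commd1, a negative regulator of NF-κB, fell by 0.74 at the low dose (limma adjusted p = 0.0194), and its changes of -0.28 and -0.33 at the medium and high dose did not pass the test. When replicate numbers replaced slide as the block, 1 signalling gene was called at the low dose and 5 at the high dose.

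Of 40 listed target genes, 38 were on the array and 25 or 26 were detected, and 4, 7 and 8 of these were called from the low to the high dose. The shares were 16%, 28% and 30.8%, against the same background, with 3, 4 and 3 genes higher and 1, 3 and 5 lower, and a median change of -0.00, -0.10 and -0.10. Because this list was chosen with earlier results of these data known, shares above the background are no independent result. Higher at each dose were Ccl5, a chemokine for T cells and monocytes (1.63, 1.53 and 1.81), Ptgs2, the inducible cyclooxygenase (1.43, 1.57 and 1.48), and Ier3, an early response gene (0.92, 1.40 and 1.16). At the high dose the limma adjusted p was 2.16e-07 for Ccl5, 1.54e-05 for Ptgs2 and 0.000347 for Ier3, and on these arrays all 6 lay above every control for each of the 3 genes. A lack of overlap with the controls held for 11.4% of all detected genes at that dose. The 3 genes are named here because they were called, so their lack of overlap is no further support. The chemokine genes Ccl2 and Ccl7 fell by 1.00 and 0.82 at the high dose (limma adjusted p = 0.0148 and 0.0270), in the opposite direction to Ccl5. Tapbp, which serves antigen loading, fell by 1.14 and 1.30 at the medium and high dose, with a limma adjusted p of 0.000559 and 6.07e-05. Without the 5 arrays nearest to another group, 4 target genes were called at the medium dose. The 3 other called targets were Vcam1 and Ccnd1, both lower, and Lif, which was higher.

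Of 18 receptor genes 12 were detected, and 2, 2 and 4 were called from the low to the high dose, or 16.7%, 16.7% and 33.3% beside 5.28%, 8.97% and 11.9% of all detected genes. Without the 5 arrays nearest to another group, 1 receptor gene was called at the low and 1 at the medium dose. The median change of the list was -0.11, -0.16 and -0.32. Tnfrsf12a, the receptor of the cytokine TWEAK, was the only one higher, by 0.93, 1.14 and 0.99 (limma adjusted p = 0.000242, 1.99e-05 and 3.66e-05). Il1r1, the signalling receptor of interleukin 1, fell by 0.85, 0.80 and 1.22 (limma adjusted p = 0.0317, 0.0370 and 0.000802). Tnfrsf1a, the main receptor of TNF, fell by 0.75 at the high dose (limma adjusted p = 4.28e-05), and its second probe changed by -0.65 (limma adjusted p = 0.0448). Tlr6, a receptor for bacterial lipoproteins, fell by 0.68 at the high dose (limma adjusted p = 0.00354). The Tlr6 probe was detected on only 15 of 22 arrays.

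**Figure D5:**
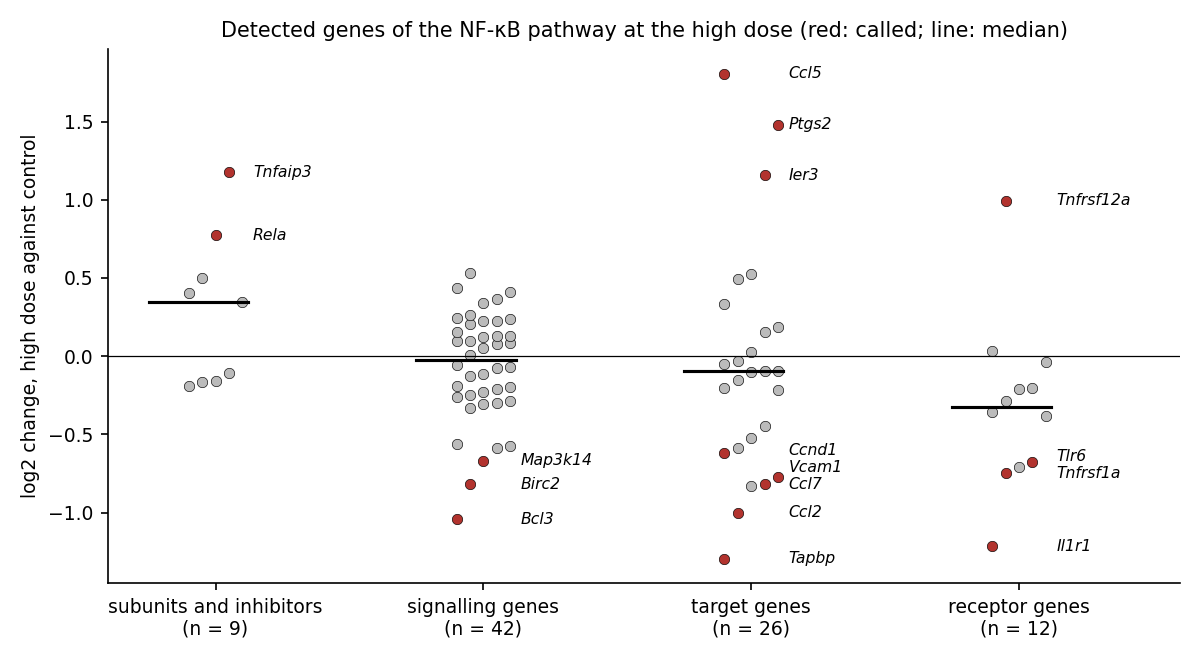
Log2 change at the high dose against control for the detected genes of each group (points), with the called genes in red and named and the median of each group as a line. Called target genes run from -1.30 (Tapbp) to 1.81 (Ccl5), while all 3 called signalling genes are lower.

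Among 10302 genes detected on at least 20 arrays, those whose slide-adjusted log2 ratio followed Tnfaip3 most closely over the 22 arrays were Flacc1 (r = 0.982), Cttnbp2nl (r = 0.964) and Cdc42ep3 (r = 0.962). Their changes at the high dose were 0.86, 1.62 and 1.24. For Rela they were Maml1 (r = 0.982), Cnih4 (r = 0.976) and Anp32b (r = 0.964), with changes of 0.91, 0.68 and 0.40. Tnfaip3 and Rela followed each other with r = 0.877 over the 22 arrays, and with r = 0.688 after the group means were also removed. These correlations are descriptions. The arrays share slides, reference RNA and exposure groups.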

How the data were processed

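RNA of 22 samples was measured on 2-colour Agilent arrays, with the sample in Cy5 and the reference in Cy3 on every array, so dye bias cancels only in differences between groups. Per the file headers, spot intensity was extracted by the authors with Feature Extraction 10.7.3.1 (grid on mm9). The deposited log10 ratios of the scanner and the authors' log2 series matrix (normalization not given in the sources used here, median correlation with the present values 0.985) served as alternatives. Per the study's methods, median signals were used without background subtraction. Here spots marked as outliers were set to missing, log2(Cy5/Cy3) underwent within-array loess, repeated spots of a probe were reduced to their median, and limma 3.58.1 (R 4.3.3) was fitted to all 22 arrays with group and slide, with Benjamini-Hochberg adjustment over 55681 probes. limma stands in for the MAANOVA test of the study. Detection used the negative control spots (trimmed mean plus 3 trimmed SD, trim 5%). Names came from RefSeq accessions (26413 probes matched), and each gene was taken by its brightest probe, by mean log2 Cy5 signal, with other probes named where they disagreed. Background percentages are over detected genes (13642, 13412 and 14027 against control from the low to the high dose). From each list at most the 6 called genes with the largest high dose change are given with values.

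The 10 genes, the lists and the tests were chosen with earlier results of these data known. Groups and numbers were read from the labels, and slides from the barcodes in the file headers. Arrays with the same number deviated together in 31 of 31 pairs (r 0.187 to 0.819, and 26 were best with their own number). The main fit had slide in the model and did not pair arrays by number. The numbers entered only an alternative fit, as a block in place of slide. Their link between arrays comes from the data, not from the labels, and the numbers largely follow the slides. The number of arrays limits the precision. The scripts were tested on simulated data.

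Alternatives changed the slide term, the normalization (median centring, normexp with offset 50, scanner or matrix values), the marked spots, the filters, the fold minimum, the variance model and the probe rule, or left out arrays or slides. The fit without the 5 arrays nearest to another group was chosen after seeing the data.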

Additional observations from a re-analysis of the deposited data

Results flagged for a closer look

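Of 40 groups of log2 ratios (10 genes in 4 groups), 3 held an array whose gap to its nearest neighbour was large for the range of its group by Dixon's test, and about 1 in 20 is flagged by chance. For Tnfaip3, control array 1 (-1.15) lay above the other controls (-1.35 to -1.30). For Nfkb2, medium dose array 1 (-1.17) lay below the other medium dose arrays. For Nfkbib, low dose array 1 (-0.99) lay below the other low dose arrays. All 3 arrays were on slide 1. Groups of 4 arrays (Relb, which had no value on slide 2) were judged by the value for their size.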

How the results depend on the processing

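Over 44 alternatives the direction of Tnfaip3 and Rela against control was kept at each dose. Tnfaip3 was called under 17 of the 22 settings other than leaving out 1 array at the low dose, 19 at the medium dose and 21 at the high dose, and Rela under 18 of 22 at the high dose. Leaving out each array in turn kept all 4 calls in 22 of 22 fits, with Tnfaip3 at 0.63 to 0.91, 0.88 to 1.00 and 1.09 to 1.28 from the low to the high dose and Rela at 0.65 to 0.88 at the high dose. On slide 1 alone, with 2 arrays per group, the change of Tnfaip3 was 0.83, 0.89 and 1.22 and that of Rela 0.73 at the high dose, and none of these passed the test. All 3 missed calls of Tnfaip3 and Rela at a minimum of 2-fold follow from the threshold. The other signs that turned were of changes that had not passed the test. Where the construction of a setting does not show the cause, the cause was not tested. Values that crossed a threshold or turned sign follow by setting, with counts of called genes first. Without the slide term, calls numbered 0 (low dose) and 1 (medium dose) of the signalling genes, 1 (low dose) and 1 (medium dose) of the receptor genes, 4 (medium dose) of the target genes and 1 (high dose) of the 10 genes, and the change turned sign for Relb to 0.0014 (high dose) and Rela between medium and low dose to 0.013. With the replicate block in the model and slide left out, calls numbered 1 (low dose) and 5 (high dose) of the signalling genes, and the change turned sign for Nfkbie to 0.014 (low dose) and Relb to 0.013 (high dose). With median centring in place of loess, calls numbered 0, 0 and 1 of the 10 genes from the low to the high dose, 1 (low dose) and 1 (medium dose) of the signalling genes, 2 (low dose) and 4 (medium dose) of the target genes and 1, 1 and 2 of the receptor genes from the low to the high dose, and the change turned sign for Relb to 0.044 (medium dose) and Rela between medium and low dose to 0.21. With the scanner's log ratios, calls numbered 1 (low dose) and 8 (high dose) of the signalling genes and 1 (low dose) of the receptor genes, and the change turned sign for Rela between medium and low dose to 0.048. With the authors' matrix values, calls numbered 1 (low dose) of the signalling genes, and the change turned sign for Relb to 0.17, 0.046 and 0.025 from the low to the high dose and Nfkb1 to 0.010 (low dose). With outlier spots kept, calls numbered 1 (low dose) of the signalling genes, and the change turned sign for Relb to 0.058, 0.070 and 0.033 from the low to the high dose. With no minimum fold, calls numbered 2 (low dose) of the 10 genes, 4, 5 and 5 of the signalling genes from the low to the high dose and 4 (medium dose) of the receptor genes. With a minimum of 2-fold, calls numbered 0, 0 and 1 of the 10 genes from the low to the high dose, 0, 0 and 1 of the signalling genes from the low to the high dose, 2, 4 and 5 of the target genes from the low to the high dose and 0, 1 and 1 of the receptor genes from the low to the high dose. In fits of only the 2 groups compared, calls numbered 0 (low dose) of the 10 genes, 1 (low dose) of the signalling genes and 1 (low dose) of the receptor genes. In an ordinary linear model without moderated variances, calls numbered 1 (low dose) of the signalling genes, 1 (low dose) and 1 (medium dose) of the receptor genes and 5 (high dose) of the target genes. With the median of the detected probes of a gene, the change turned sign for Nfkb1 to 0.016 (low dose), Relb to 0.16 (medium dose) and 0.13 (high dose) and Nfkbib to -0.0019 (medium dose). Without low dose array 1 and medium dose array 2, calls numbered 1 (low dose) and 1 (medium dose) of the receptor genes, and the change turned sign for Rela between medium and low dose to 0.0043. Without the 5 arrays nearest to another group (chosen after seeing the data), calls numbered 1 (low dose) and 1 (medium dose) of the receptor genes and 4 (medium dose) of the target genes, and the change turned sign for Relb to 0.28 (medium dose) and 0.084 (high dose) and Nfkbia to 0.038 (medium dose). Without slide 1, calls numbered 2 (low dose) of the 10 genes, 1 (low dose) and 1 (medium dose) of the receptor genes and 5 (high dose) of the signalling genes, and the change turned sign for Nfkbia to 0.13 (medium dose). Without slide 2, calls numbered 1 (low dose) of the signalling genes, and the change turned sign for Rela between medium and low dose to 0.060. Without slide 3, calls numbered 0 (low dose) of the 10 genes, 1 (low dose) of the signalling genes, 2 (low dose) of the target genes and 1 (low dose) and 1 (medium dose) of the receptor genes. Without slide 4, calls numbered 1 (low dose) of the signalling genes, and the change turned sign for Relb to 0.36, 0.46 and 0.37 from the low to the high dose, Nfkb2 to -0.065 (low dose) and Nfkbie to 0.017 (low dose). On slide 1 alone, calls numbered 0, 0 and 0 of the 10 genes from the low to the high dose, 0, 0 and 1 of the signalling genes from the low to the high dose, 0, 0 and 0 of the target genes from the low to the high dose and 0, 0 and 0 of the receptor genes from the low to the high dose, and the change turned sign for Relb to 0.36, 0.41 and 0.37 from the low to the high dose, Nfkb2 to -0.12 (low dose), Nfkb1 to 0.019 (high dose) and Rela between medium and low dose to 0.12.

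Leaving out 1 array at a time, the called genes of the 10 numbered 1 to 2, 1 to 2 and 2 to 3 from the low to the high dose. Signalling genes numbered 1 to 3, 1 to 4 and 3 to 5, and receptor genes 1 to 2, 1 to 2 and 3 to 5. The changes that turned sign ranged from -0.37 to 0.35 for Relb at the low, -0.27 to 0.46 at the medium and -0.34 to 0.38 at the high dose, from -0.0044 to 0.34 for Nfkb2 at the low dose, from -0.076 to 0.027 for Nfkbie at the low dose, from -0.26 to 0.0024 for Nfkbia at the medium dose and from -0.17 to 0.047 for Rela between medium and low dose. The replicate block moved the counts of signalling genes at the low and high dose by over 1.5 times, as given above, and moved no other count that far and changed no call of the 10 genes. Dim probes limit what can be seen, and Rel, at the level of the negative controls, could not be compared.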
